A study of Homo sapiens with 6 samples.

Results

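The genes described here serve the unfolded protein response and the quality control of the endoplasmic reticulum (ER). They are a set of 33 genes matched by symbol to the probe annotation of a bead array, out of 18852 genes named on it. Of the 33, 32 had a named probe, with 40 probes in all among 48803. HERPUD1, which encodes a membrane adaptor of ER-associated degradation, had none and was not analysed here. PDIA3, a disulfide isomerase of the glycoprotein folding cycle, and ERN1, which encodes the stress sensor IRE1, had a probe that was above background on 0 of 6 arrays. The other 30 genes, with 37 probes, were measured, which required a detection p under 0.01 on no fewer than 3 of the 6 arrays in any group.

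The arrays came from ES-2, an established line of human ovarian clear cell carcinoma. Cells were given 65 nM of a mir-22 mimic, a synthetic RNA duplex that stands in for the microRNA, and the control cells received a negative control mimic designed after nematode microRNAs, whose dose is not recorded in the labels. Both groups were transfected with a lipid reagent and harvested 48 hours later, with 3 arrays each that the labels call biological replicates. The question was how transcript levels respond when mir-22, described by the submitters as low in ovarian cancer, is raised. Results come from 1 line, no array of mock-transfected cells was analysed here, and the uptake of either mimic was not measured on these arrays. Total RNA of a culture cannot tell a change in every cell from a change in the share of cells that express a gene. Of 19 marker genes of cell types, 9 were measured and 0 passed the limma test between groups described here with 6 arrays (3 at an unadjusted p under 0.05). The closest was CDH2, the mesenchymal cadherin N-cadherin, at a log2 fold change of 0.65, or 1.57-fold (adjusted p = 0.0596), with every mimic array above every control. It was called with the replicate number as a block (0.0391) and without control mimic replicate 3 (0.45, 0.00859), and without that array CD68 was called lower (-0.38, 0.0178). The other mesenchymal genes measured, VIM (0.02), FN1 (-0.17) and ZEB1 (-0.11), did not rise with CDH2 and were not called. A second VIM probe was at -0.33. The 2 markers that lay lower at an unadjusted p under 0.05 in limma were CDH5 (-0.38) and KRT18 (-0.28). The part of these markers in the results on the members was not tested. The clear cell markers NAPSA and PAX8 and the epithelial genes EPCAM, CDH1 and KRT19 were not above background on any array. KRT8, KRT18 and VIM were measured, as were CD68, CDH5 and PECAM1, which also mark macrophages or endothelium, whereas PTPRC, CD3E and VWF were not above background.

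Mature mir-22 acts through the seed, the bases near its 5' end that pair with target transcripts, shown in capitals (bases 2 to 8) in the RefSeq sequence of its 3p arm, which lies at chr17:1713914-1713935 of GRCh38.p14 on the minus strand. The labels do not give the sequence of the mimic itself.
hsa-miR-22-3p: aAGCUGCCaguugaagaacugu

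Secretory and membrane proteins enter the ER through the SEC61 channel, fold with the help of chaperones and disulfide isomerases, and are passed to ER-associated degradation when folding fails. When unfolded proteins accumulate, the sensors ATF6, IRE1 and PERK start the unfolded protein response. IRE1 splices the mRNA of XBP1 into a form that encodes a strong transcription factor, ATF6 is cut in the Golgi to release another, and PERK slows translation by phosphorylating an initiation factor. XBP1 and ATF6 raise genes of chaperones, folding enzymes and degradation factors.

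One array stood apart from the rest. Log2 intensities of control mimic replicate 3 correlated with the other controls at 0.98 and 0.981, against 0.997 between those and 0.995 to 0.998 among mimic arrays. It detected the fewest probes (17465, against 18185 to 19244). The median standard error over the beads of a probe was highest on mimic replicate 3 (5.08%) and control mimic replicate 3 (4.71%), against 3.63% to 3.99% on the others. Of the 30 members, 6 lay more than 0.5 log2 units below the mean of the other controls on control mimic replicate 3 and 1 lay as far above. The same held for 10.6% and 3.11% of all measured genes. Counts of calls, medians of the roles and the members that moved with this array are therefore also given without it.

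Most of the measured members lay higher with the mimic, and 23 of the 30 log2 fold changes (76.7%) were above 0, against 47% of all measured genes. Taking each gene's brightest probe, 5 of the 30 measured members (16.7%) rose at an adjusted p under 0.05 and 0 fell, where 3.47% of all 11133 measured genes rose and 4.14% fell. The 5 were ERO1A, SEL1L, XBP1, DNAJB11 and SSR1, which belong to 5 different roles. At an unadjusted p under 0.05, 14 members lay higher and 1, SEC61A1, lower. The share of all measured genes at this unadjusted limit was not counted, so counts at it have no such share beside them. Without control mimic replicate 3, 11 members (36.7%) rose and 0 fell, against 8.6% and 7.66% of all genes. These 11 were the same 5 with HSPA5, DNAJB9, HYOU1, CRELD2, PDIA6 and DERL2. The median log2 fold change, mir-22 mimic minus control mimic, was 0.28 over the 30 members and -0.017 over all measured genes, and without that array 0.23 and -0.002. Every mimic array lay above every control array for 15 members, or 50%, where 14.8% of all genes showed this, and below every control array for 1 member, where 19.5% did. Without control mimic replicate 3 the former held for 16 members (53.3%) and 25% of all genes. The members were chosen with results of these data known, so these shares describe the list and test nothing. The calls leaned on each single array: 1 member was called without any one mimic array, 1 without control mimic replicate 1 and 2 without control mimic replicate 2.

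**Figure D1:**
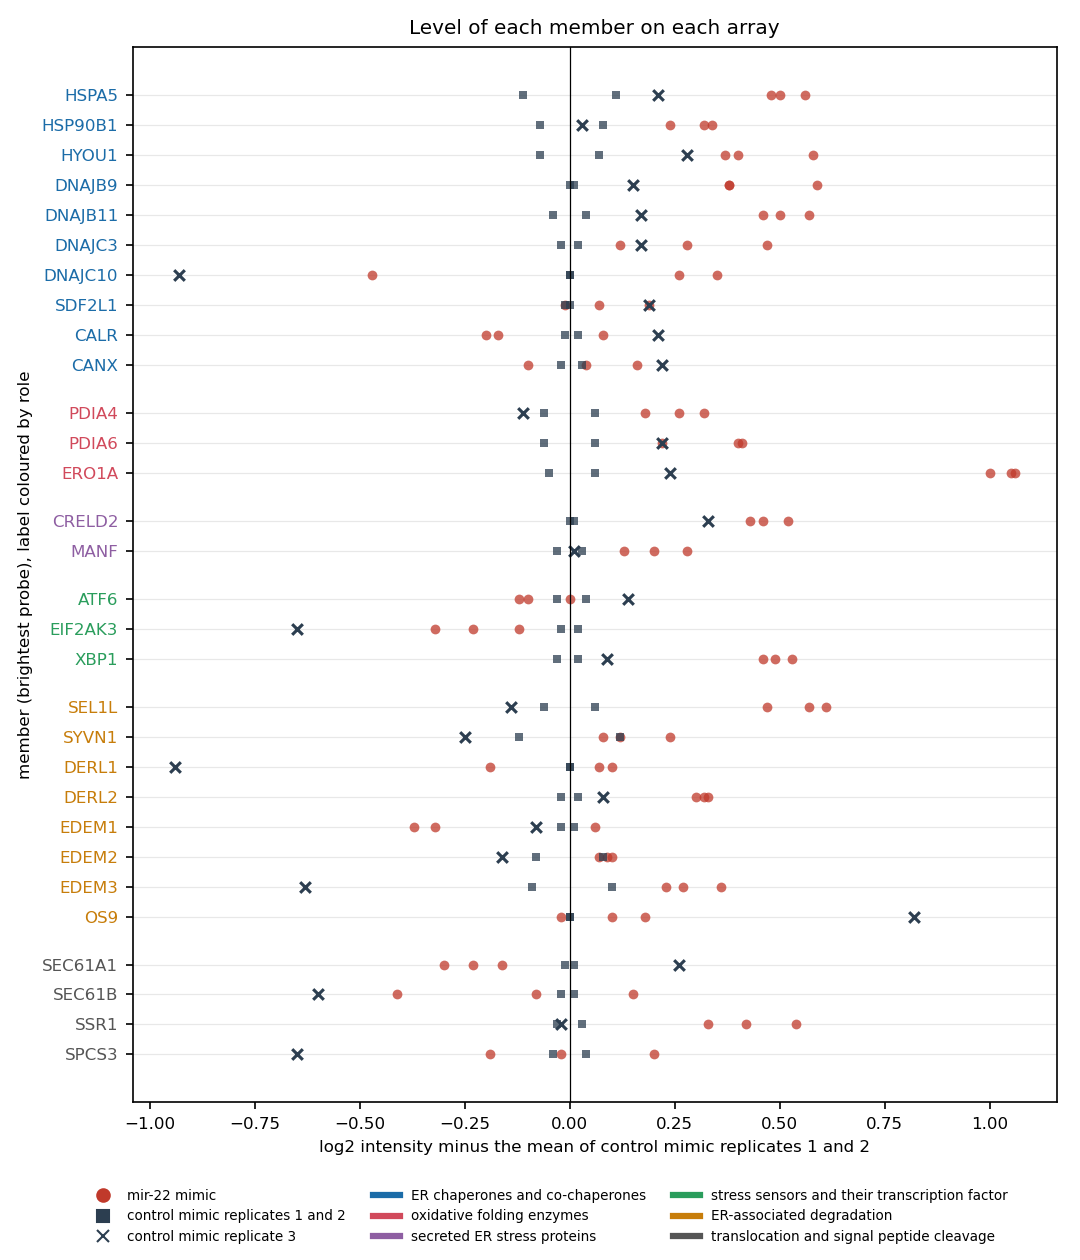
Log2 intensity of each measured member on each array, minus the mean of control mimic replicates 1 and 2 (x axis, log2 units), 1 row per gene, with labels coloured by role. Red circles are the 3 mimic arrays, squares control mimic replicates 1 and 2, and crosses control mimic replicate 3, which lies 0.92 below the other controls for DNAJC10, 0.95 below for DERL1 and 0.82 above for OS9.

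Among the sensors, only the downstream factor passed. The log2 intensity of XBP1, the transcription factor that IRE1 activates by splicing, was 11.59, 11.63 and 11.56 on mimic replicates 1, 2 and 3 and 11.07, 11.12 and 11.19 on control mimic replicates 1, 2 and 3. All mimic arrays lay above all controls, and the gap between the groups exceeded the spread within either. XBP1 rose by 0.46 ± 0.09 on the log2 scale (moderated standard error, 3 arrays per group), or 1.38-fold, with an adjusted p of 0.0262 in limma. Its second probe gave 0.49 ± 0.12 (adjusted p = 0.0566), or 0.0327 with the replicate number as a block. Whether the spliced or the unspliced form rose was not analysed here.

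ATF6, the sensor that is itself a membrane-bound transcription factor, read 9.97, 9.87 and 9.85 on the mimic arrays and 10.01, 9.94 and 10.11 on the controls. The groups overlapped, and its log2 fold change of -0.12 ± 0.10 did not pass (adjusted p = 0.496). With median scaling in place of quantile normalisation it was 0.02. EIF2AK3, which encodes PERK, was at -0.01 ± 0.18. It was dim, and it was above background on 3 mimic arrays and 2 of 3 controls. Control mimic replicate 3 (4.44) lay below the other controls (5.11 and 5.07) and below the mimic arrays (4.77, 4.86 and 4.97). Without it EIF2AK3 was at -0.22, with an adjusted p of 0.148. No alternative called it. The median over the 3 measured genes of this role was -0.01, and -0.08 without control mimic replicate 3.

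The ER chaperones and co-chaperones had a median log2 fold change of 0.32 over 10 measured genes. Of these, 8 lay above 0, where 47% of all measured genes did. With 6 arrays 1 was called higher and 0 lower, against 3.47% and 4.14% of all measured genes. Without control mimic replicate 3 the median was 0.29 and 4 were called higher, as were 8.6% of all measured genes. DNAJB11, a J-domain partner of the ER chaperone BiP, read 11.48, 11.52 and 11.59 on the mimic arrays and 11.06, 10.98 and 11.19 on the controls. It rose by 0.46 ± 0.10, or 1.37-fold (adjusted p = 0.0368). The groups did not overlap, and the highest control was replicate 3.

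HSPA5, which encodes BiP, the Hsp70 chaperone that also holds the sensors inactive, read 9.44, 9.42 and 9.50 on the mimic arrays and 8.83, 9.05 and 9.15 on the controls. All mimic arrays lay above all controls, the controls being spread more widely (SD 0.16) than the mimic arrays (SD 0.04). Its log2 fold change of 0.45 ± 0.11 missed the threshold (adjusted p = 0.0527). A fit that blocks on the replicate number gave it an adjusted p of 0.0456. When control mimic replicate 3 was left out, HSPA5 rose by 0.52, or 1.43-fold (adjusted p = 0.00873). Over all 16 alternatives its adjusted p ran from 0.00327 to 0.18, and 10 of them called it. DNAJB9, another J-domain partner of BiP and a target of XBP1, read 8.41, 8.20 and 8.20 on the mimic arrays against 7.83, 7.82 and 7.97, again without overlap. It was at 0.40 ± 0.11 (adjusted p = 0.0656) and at 0.45 without control mimic replicate 3 (adjusted p = 0.0168).

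HSP90B1, the ER paralog of Hsp90, read 13.36, 13.28 and 13.38 on the mimic arrays and 13.12, 12.97 and 13.07 on the controls. The groups did not overlap, but its log2 fold change of 0.29 ± 0.09 passed neither with 6 arrays (adjusted p = 0.115) nor without control mimic replicate 3 (0.0582). HYOU1, a large Hsp70 relative that exchanges the nucleotide of BiP, had 2 probes with nearly equal changes, 0.36 ± 0.12 for the brighter (adjusted p = 0.128) and 0.39 ± 0.10 for the other (0.054). Both were called without control mimic replicate 3, at 0.45 and 0.40. DNAJC3, a co-chaperone that also inhibits PERK, was at 0.23 ± 0.12 with overlapping groups.

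The lectin chaperones were close to or below the controls. CALR, which encodes calreticulin, read 8.87, 8.84 and 9.12 on the mimic arrays and 9.03, 9.06 and 9.25 on the controls. It had the lowest value of the chaperones, -0.17 ± 0.12 (adjusted p = 0.422), with overlapping groups and the number 3 array highest in each. CANX, its membrane-bound relative calnexin, was at -0.04 and -0.06 by its 2 probes, and the brighter was at 0.10 with median scaling. SDF2L1, a partner of the BiP machinery, was at 0.02 ± 0.11. None of these 3 genes was called in any alternative.

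DNAJC10, a J-domain protein that reduces disulfide bonds of proteins bound for degradation, had a wide spread in both groups. Its brighter probe read 9.85 and 9.76 on mimic replicates 1 and 2 but 9.03 on mimic replicate 3, and 9.50 and 9.50 on control mimic replicates 1 and 2 but 8.57 on control mimic replicate 3. Both number 3 arrays thus lay low. The log2 fold change was 0.35 ± 0.29 with 6 arrays and 0.05 without control mimic replicate 3. Without both number 3 arrays, a setting chosen after the data were seen, it was 0.30 (adjusted p = 0.0466). The dimmer probe was at 0.42 ± 0.18 (adjusted p = 0.216) and passed when the fit blocked on the replicate number (0.0424). The bead standard error of the brighter probe reached 14.7% of its intensity, and that of DERL1 16.1%, above the medians of all probes given above.

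**Figure D2:**
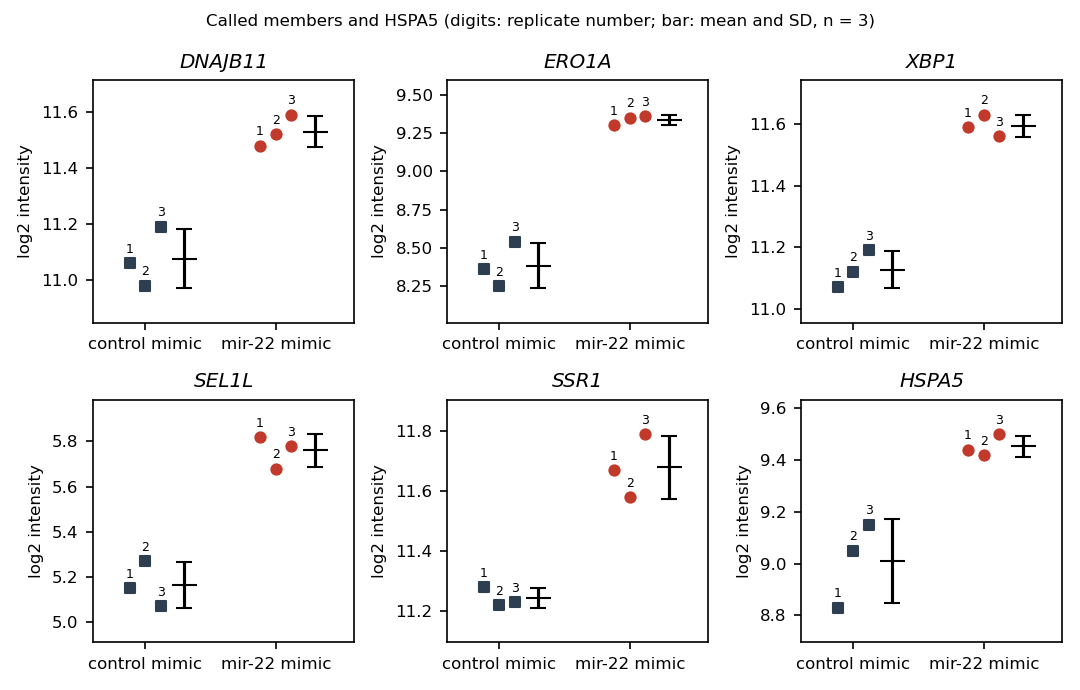
Log2 intensity (y axis) of the 5 members called with 6 arrays and of HSPA5 in control mimic (squares) and mir-22 mimic (circles) cells. Digits give the replicate number and bars the mean and SD of 3 arrays. No control array reaches a mimic array in any panel, and the axes do not start at 0.

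Oxidative folding held the largest single change. ERO1A, the oxidase that passes oxidising equivalents to protein disulfide isomerases and that is also known as a hypoxia-induced gene, read 9.30, 9.35 and 9.36 on the mimic arrays and 8.36, 8.25 and 8.54 on the controls. The groups lay far apart relative to their SDs of 0.04 and 0.15. It rose by 0.95 ± 0.11, or 1.94-fold (adjusted p = 0.00416), and was called in all 16 alternatives, with adjusted p-values of 1.79e-05 to 0.0423. No other member kept its call in all of them. PDIA4, a disulfide isomerase, read 7.67, 7.61 and 7.53 on the mimic arrays and 7.41, 7.29 and 7.24 on the controls. It did not overlap between groups but missed the threshold at 0.29 ± 0.10 (adjusted p = 0.125).

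PDIA6, an isomerase that also damps IRE1 signalling, read 9.70, 9.52 and 9.71 on the mimic arrays and 9.36, 9.24 and 9.52 on the controls. Mimic replicate 2 and control mimic replicate 3 nearly met. Its log2 fold change was 0.27 ± 0.11 (adjusted p = 0.196), and 0.35 without control mimic replicate 3 (0.0442). The median of the 3 measured folding enzymes was 0.29, and 0.35 without that array.

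The secreted stress proteins were above the controls on all mimic arrays. CRELD2, an ER-retained protein released under stress, read 10.31, 10.28 and 10.37 on the mimic arrays and 9.86, 9.85 and 10.18 on the controls. Control mimic replicate 3 lay 0.33 above the other controls and narrowed the gap. The log2 fold change of 0.36 ± 0.12 (adjusted p = 0.115) became 0.47 without it (0.00732). MANF, a small secreted protein that binds BiP and protects neurons and beta cells under ER stress, read 11.94, 12.01 and 12.09 on the mimic arrays and 11.78, 11.84 and 11.82 on the controls, a change of 0.20 ± 0.09 that no alternative called.

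ER-associated degradation was mixed. Its 8 measured genes had a median log2 fold change of 0.26. Of these, 6 lay above 0, where 47% of all measured genes did. With 6 arrays 1 was called higher and 0 lower, against 3.47% and 4.14% of all measured genes. The median fell to 0.12 without control mimic replicate 3, where 2 were called higher, as were 8.6% of all measured genes. SEL1L, the scaffold of the ubiquitin ligase that clears misfolded proteins, read 5.82, 5.68 and 5.78 on the mimic arrays and 5.15, 5.27 and 5.07 on the controls. No control reached the mimic arrays, and SEL1L rose by 0.60 ± 0.10, or 1.51-fold (adjusted p = 0.0153). Its catalytic partner SYVN1, the ligase HRD1, was at 0.23 ± 0.12 by the brighter probe and 0.26 ± 0.10 by the other, and neither was called.

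DERL2, a rhomboid-like protein of the same complex, read 9.09, 9.07 and 9.10 on the mimic arrays and 8.79, 8.75 and 8.85 on the controls. These arrays were tight (SDs of 0.02 and 0.05), and the brighter probe was at 0.29 ± 0.09 (adjusted p = 0.0973). It moved to 0.32 (0.0332) when control mimic replicate 3 was left out. A dimmer DERL2 probe, annotated to a different transcript record, lay the opposite way at -0.22 ± 0.14. Its groups overlapped and it was not called (adjusted p = 0.364), and it was at -0.11 without control mimic replicate 3. The probes of this gene thus differ in sign. DERL1, its relative, read 9.65, 9.68 and 9.39 on the mimic arrays and 9.58, 9.58 and 8.64 on the controls. Control mimic replicate 3 alone lay far from the rest: the log2 fold change was 0.31 ± 0.25 with it and -0.01 without it.

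The mannosidase-like proteins of the EDEM family mark glycoproteins for degradation by trimming their mannose. EDEM3 read 7.45, 7.54 and 7.41 on the mimic arrays and 7.09, 7.28 and 6.55 on the controls, at 0.50 ± 0.18 (adjusted p = 0.14) by its brightest probe and 0.16 ± 0.14 by another. Control mimic replicate 3 was again the lowest, and without it the brightest probe was at 0.29. EDEM2 was at 0.15 ± 0.10 and EDEM1 at -0.18 ± 0.13. OS9, a lectin that delivers trimmed glycoproteins to the ligase, read 6.23, 6.15 and 6.03 on the mimic arrays and 6.05, 6.05 and 6.87 on the controls. Its log2 fold change of -0.19 ± 0.21 rested on control mimic replicate 3 and was 0.09 without it. None of these 4 genes was called in any alternative.

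Of the genes for translocation into the ER, one rose and one lay lower without passing. SSR1, a subunit of the translocon-associated protein complex, read 11.67, 11.58 and 11.79 on the mimic arrays and 11.28, 11.22 and 11.23 on the controls. It rose by 0.43 ± 0.10, or 1.35-fold (adjusted p = 0.0399), and by the same amount without control mimic replicate 3. SEC61A1, the channel's main subunit, read 11.69, 11.55 and 11.62 on the mimic arrays and 11.86, 11.84 and 12.11 on the controls. Of the measured members it alone had every mimic array below every control, yet its log2 fold change of -0.32 ± 0.11 did not pass with 6 arrays (adjusted p = 0.131) or without control mimic replicate 3 (-0.23, 0.112). Of 16 alternatives 1, array weights, called it lower (0.042).

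SEC61B, the small beta subunit of the channel, was at 0.09 ± 0.20, and SPCS3, a subunit of the signal peptidase, at 0.21 ± 0.19. Control mimic replicate 3 lay 0.59 and 0.65 below the other controls for these 2 genes, and without it they were at -0.11 and 0.00. For SEC61B mimic replicate 3 also lay low, 0.45 below the other mimic arrays. Without both number 3 arrays, the setting chosen after the data were seen, SEC61B was at 0.04 and SPCS3 at 0.00. The median of the 4 translocation genes moved from 0.15 to -0.06 when control mimic replicate 3 alone was left out. In the chaperone, folding enzyme and secreted protein roles the same array lay above the other controls by medians of 0.18, 0.22 and 0.17, where the median over all measured genes was 0.121. It lay below them by a median of -0.15 in degradation and -0.30 in translocation. Its part in the differences between roles was not tested.

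**Figure D3:**
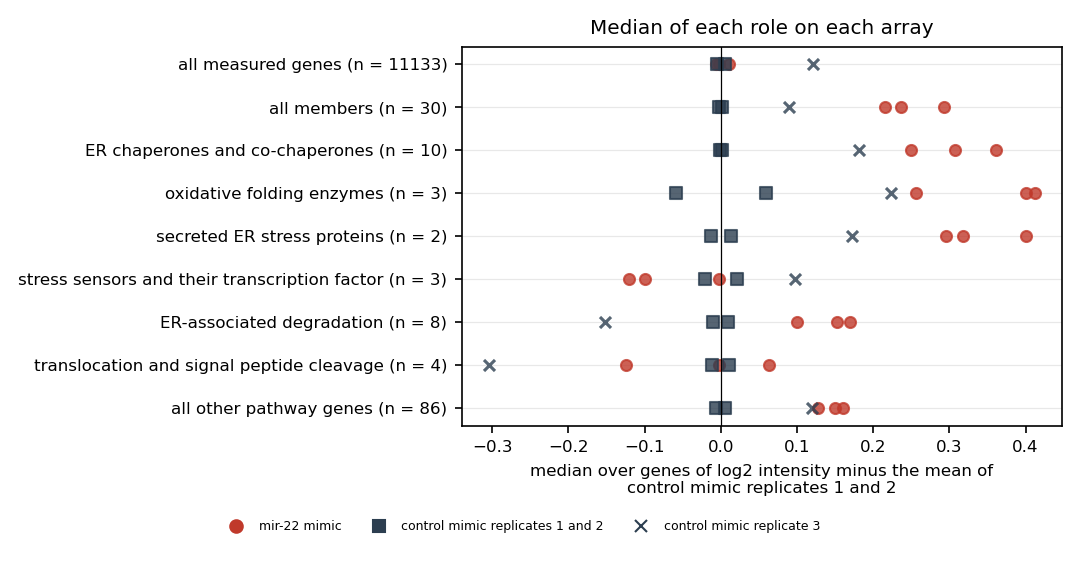
Median over the genes of each role of log2 intensity minus the mean of control mimic replicates 1 and 2 (x axis), for each array. The mimic arrays (circles) lie at 0.215 to 0.293 for all 30 members and within 0.011 of 0 for all measured genes. Control mimic replicate 3 (cross) lies at 0.121 for all measured genes, 0.182 for the chaperones and -0.304 for the translocation genes.

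The calls other than that of ERO1A were fragile. DNAJB11, XBP1 and SSR1 lost their calls without any 1 mimic array and without control mimic replicate 1 or 2. SEL1L lost its call without any 1 mimic array or control mimic replicate 1 and kept it without control mimic replicate 2. All 5 called members were called again without control mimic replicate 3. With an array left out, log2 fold changes ran from 0.41 to 0.51 for DNAJB11, 0.44 to 0.50 for XBP1, 0.38 to 0.48 for SSR1, 0.55 to 0.65 for SEL1L and 0.89 to 1.03 for ERO1A. The sizes thus moved little while the adjusted p-values crossed the threshold.

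**Figure D4:**
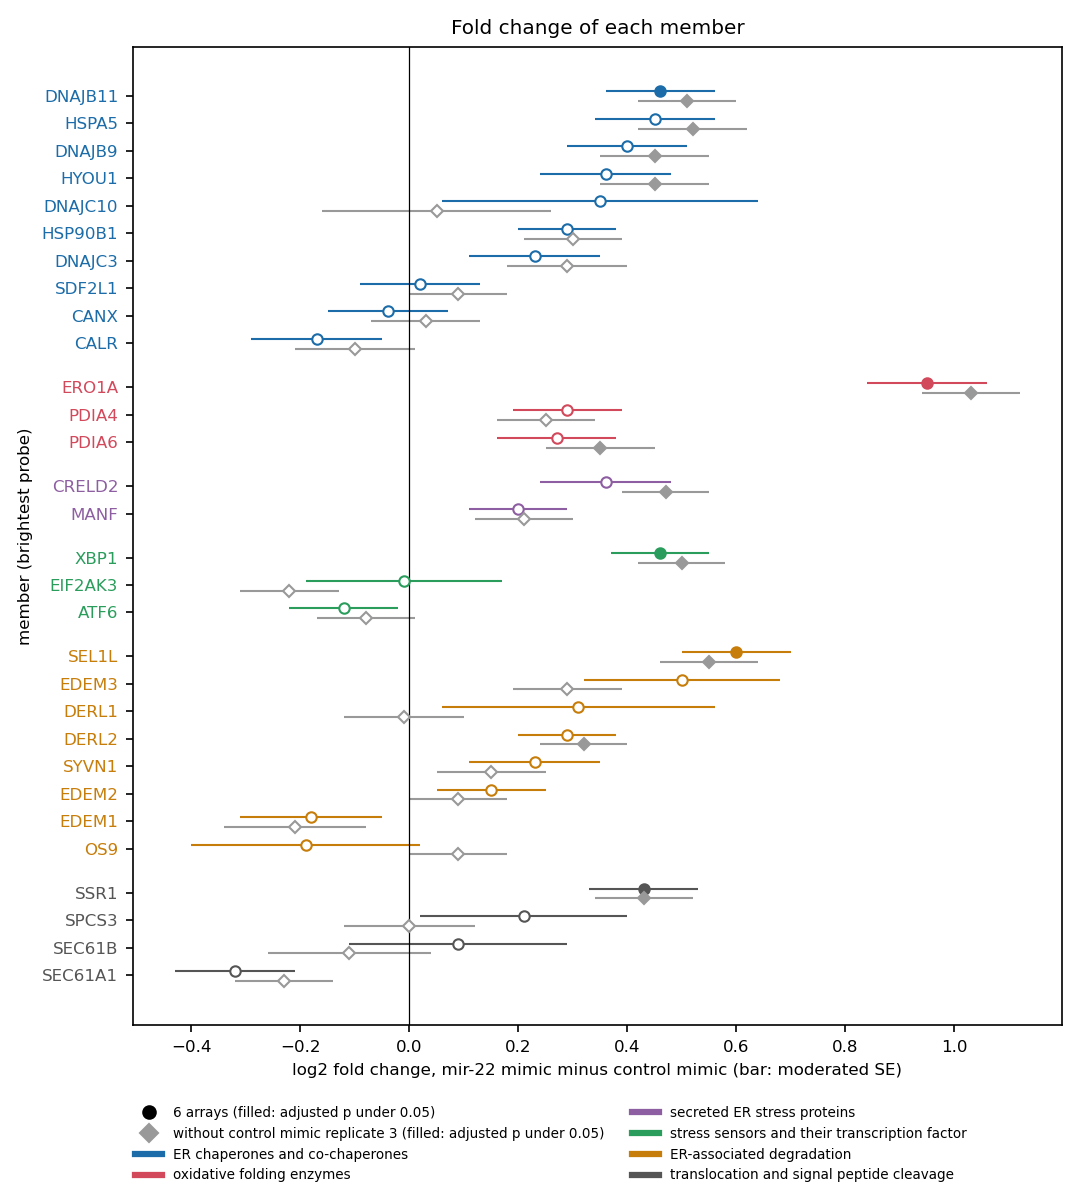
Log2 fold change of each measured member, mir-22 mimic minus control mimic (x axis), with its moderated standard error, grouped by role. Circles use 6 arrays and grey diamonds leave out control mimic replicate 3, and filled symbols passed an adjusted p of 0.05. ERO1A at 0.95 stands clear of the rest, and DNAJC10, DERL1, OS9 and SPCS3 move to between 0.00 and 0.09 or just below 0 when the array is left out.

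Genes of the same pathways beyond the members were read from a list of 95, of which 86 were measured. Of these, 6 (6.98%) rose and 0 fell with 6 arrays in limma (6 lay lower at an unadjusted p under 0.05), against 3.47% and 4.14% of all genes. Without control mimic replicate 3, 16 (18.6%) rose and 3 fell, against 8.6% and 7.66%. Blocking on the replicate number, 10 rose and 1 fell, against 522 and 579 of all 11133 measured genes. Their median log2 fold change was 0.14, and 0.16 without control mimic replicate 3. Every mimic array lay above every control for 32.6% of them, against 14.8% of all genes, and for 50% without that array, against 25%.

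SEC62, a translocon partner that also serves ER turnover, had the largest change of these, a rise of 0.84 ± 0.09 or 1.79-fold (adjusted p = 0.00387). It was called whichever array was left out. Its partner SEC63 rose by 0.43 ± 0.09 (adjusted p = 0.0381). SERPINH1, the collagen chaperone Hsp47, rose by 0.77 ± 0.14, the disulfide isomerase gene TXNDC5 by 0.64 ± 0.11 and ERP44, which retains ERO1 oxidases in the ER, by 0.48 ± 0.11. MBTPS2, the membrane protease that makes the final cut of ATF6, rose by 0.54 ± 0.12. These values are of the brightest probes. The other probes of MBTPS2 (0.25 ± 0.13, adjusted p = 0.299) and SEC63 (0.38 ± 0.21, 0.323) overlapped between groups and were not called. That of TXNDC5 (0.49 ± 0.14, 0.0807) did not overlap but was not called with 6 arrays, and that of ERP44 was not above background on any array. Without control mimic replicate 3 all 6 were called, at 0.83 for SEC62, 0.42 for SEC63, 0.91 for SERPINH1, 0.73 for TXNDC5, 0.50 for ERP44 and 0.43 for MBTPS2. Leaving out any single mimic array, or control mimic replicate 1 or 2, removed the calls of these genes except that of SEC62. Less bright probes of KDELR3 and DNAJB12 rose (0.53 and 0.59) and one of BAG6 fell (-0.57), while the brightest probe of each lay between -0.18 and 0.02 and was not called.

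Among those that missed the threshold, the closest were CREB3L2 (-0.49, adjusted p = 0.0523), SRPRA (0.63, 0.0598), SELENOS (0.36, 0.0601), CLGN (0.70, 0.0773), UBE2J1 (-0.36, 0.0842) and TMX3 (0.71, 0.0942). CREB3L2 is a membrane-bound relative of ATF6, SRPRA a subunit of the receptor for the signal recognition particle, and UBE2J1 a ubiquitin-conjugating enzyme of degradation. Blocking on the replicate number called CREB3L2 (0.0336), SRPRA (0.0208), CLGN (0.025) and TMX3 (0.0166). It also called PPIB, which encodes the prolyl isomerase cyclophilin B and was named after its values were seen (0.56, adjusted p = 0.279, or 0.0446 with the block). The PPIB and CLGN probes were dim and above background on 2 of 3 controls, at 4.57 and 4.78 on control mimic replicate 3. Another CLGN probe was not above background on any array. When control mimic replicate 3 was left out, CREB3L2 (-0.39), SRPRA (0.78), SELENOS (0.41), CLGN (0.49) and UBE2J1 (-0.42) were called, while TMX3 (0.48) and PPIB (0.27) were not. None of the 8 measured genes of the PERK branch and its output through ATF4 was called by limma with 6 arrays, 0 had an unadjusted p under 0.05, and their log2 fold changes ran from -0.02 to 0.50. The highest was ATF4, the transcription factor of this branch, for which control mimic replicate 3 lay 1.03 below the other controls. Without that array ATF4 was at 0.16, the range was -0.03 to 0.35, and DDIT3, the stress-induced factor CHOP, at the upper end, was called (0.0365). The median over the 20 measured other degradation factors was -0.03. Of these, 9 lay above 0, where 47% of all measured genes did. None was called, though 3 lay higher and 2 lower at an unadjusted p under 0.05. Without control mimic replicate 3 their median was 0.01, with SELENOS called higher and UBE2J1 and NGLY1 (-0.40) lower.

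A part of the set shares a sequence element near the annotated start. The ER stress response element, ERSE, is a published site of ATF6 and XBP1 with CCAAT and CCACG set 9 bases apart, and ERSE-II has ATTGG and CCACG set 1 base apart. RefSeq promoter windows of GRCh38.p14, 250 bases before to 50 after the annotated start, were matched by symbol for 31 of the 33 members. Only 1 window was read per gene, the one with the lowest coordinate. Other annotated starts of a gene were not searched, and the window read need not be its main promoter. On either strand, ERSE was found in 5 of these 31 windows (16.1%) and in 22 of all 27305 windows (0.0806%), and ERSE-II in 3 (9.68%) and 17 (0.0623%). The core of a further XBP1 site, the unfolded protein response element or UPRE, TGACGTGG, was found in 2 members (6.45%), HYOU1 and DNAJC10, and in 0.762% of all windows. The copy in HYOU1 overlaps an ERSE-II on the opposite strand. A match of letters is a description and does not show binding. The elements of the measured members are shown because they are the sequence that these genes share, each read 5' to 3' on its own strand with the fixed bases in capitals.
HSPA5 (ERSE, chr9:125241391-125241409, minus strand): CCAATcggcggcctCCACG
HSP90B1 (ERSE, chr12:103930216-103930234, plus strand): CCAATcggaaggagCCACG
HSP90B1 (ERSE, chr12:103930321-103930339, minus strand): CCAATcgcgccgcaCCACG
PDIA6 (ERSE, chr2:10812853-10812871, minus strand): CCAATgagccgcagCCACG
CRELD2 (ERSE, chr22:49918554-49918572, minus strand): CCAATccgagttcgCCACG
CALR (ERSE, chr19:12938384-12938402, minus strand): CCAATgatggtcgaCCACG
HYOU1 (ERSE-II, chr11:119057380-119057390, plus strand): ATTGGaCCACG
HYOU1 (ERSE-II, chr11:119057274-119057284, plus strand): ATTGGaCCACG
SDF2L1 (ERSE-II, chr22:21642114-21642124, minus strand): ATTGGtCCACG

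Measured members with an ERSE or ERSE-II were 7, with log2 fold changes from -0.17 (CALR) to 0.45 (HSPA5) and a median of 0.29. The other 22 measured members with a window had a median of 0.23. None of the 7 was called by limma with 6 arrays, though 5 had an unadjusted p under 0.05, a limit at which all genes were not counted. Without control mimic replicate 3, 4 were called, namely HSPA5, HYOU1, PDIA6 and CRELD2. All 5 members called with 6 arrays lacked the 3 elements in the window read, which does not show that their other starts lack them. Of the 22, 7 were called without control mimic replicate 3, when 8.6% of all genes were called higher. Every mimic array lay above every control for 5 of the 7 and for 10 of the 22, against 14.8% of all genes. CALR and SDF2L1 carried an element and were not called in any alternative. Medians of the 2 sets were not compared by a test.

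The windows of HSPA5 (chr9:125241294-125241593, minus strand) and CALR (chr19:12938359-12938658, plus strand) are printed on the gene's strand, since both hold an ERSE (in capitals, on the opposite strand in CALR) and their log2 fold changes were 0.45 and -0.17. The element starts 66 bases before the annotated start in HSPA5 and 225 bases before it in CALR.
HSPA5: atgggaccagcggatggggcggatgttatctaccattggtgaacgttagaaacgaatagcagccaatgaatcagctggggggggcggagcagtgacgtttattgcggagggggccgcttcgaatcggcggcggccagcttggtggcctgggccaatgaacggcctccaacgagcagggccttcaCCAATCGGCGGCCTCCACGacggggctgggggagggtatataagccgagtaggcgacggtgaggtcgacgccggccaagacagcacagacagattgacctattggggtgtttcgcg
CALR: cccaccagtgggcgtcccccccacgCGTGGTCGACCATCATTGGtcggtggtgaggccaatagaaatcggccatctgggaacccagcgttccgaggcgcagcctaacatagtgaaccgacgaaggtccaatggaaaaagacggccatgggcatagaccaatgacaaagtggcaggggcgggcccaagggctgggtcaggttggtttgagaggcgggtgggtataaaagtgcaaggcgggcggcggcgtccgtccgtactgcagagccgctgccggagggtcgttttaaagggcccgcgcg

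**Figure D5:**
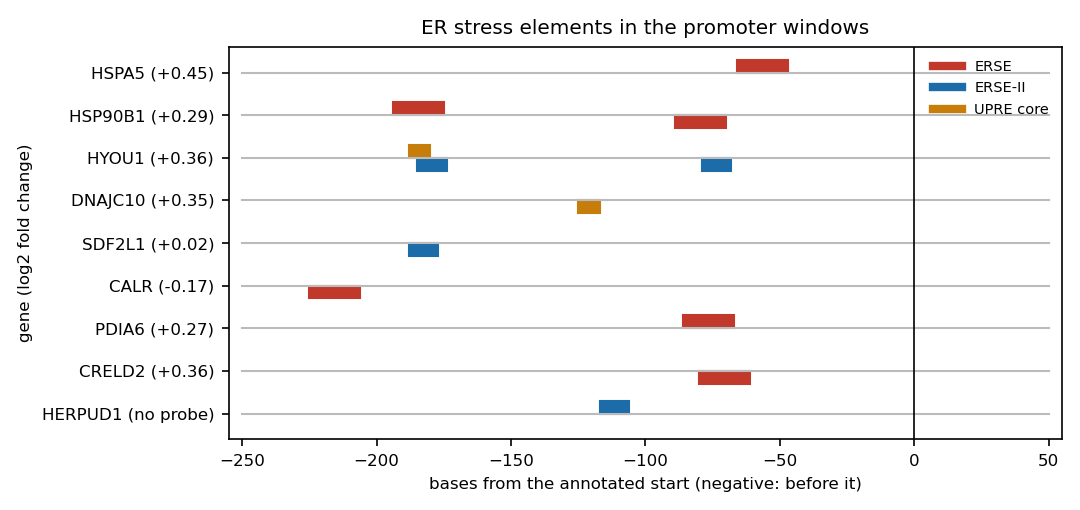
Position of ER stress elements in the promoter windows of the members that hold one, in bases from the annotated start (x axis), above the line on the gene's strand and below it on the opposite strand. Labels give the log2 fold change with 6 arrays. Elements of HSPA5, PDIA6 and CRELD2 lie within 86 bases of the start, and that of CALR starts 225 bases before it. HSP90B1 has elements that start 194 and 89 bases before it, and HYOU1 has elements that start 188, 185 and 79 bases before it.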

How the data were processed

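Expression was measured on 6 one-colour Illumina bead arrays. Per the file headers, the deposited files hold for each probe the mean bead intensity, the spread over beads, the count of beads and a detection score. The submitters' processing notes name BeadStudio, with no version, as the software with which the authors summarised the intensity values. The deposited intensities were neither background-subtracted nor normalised, their lowest values lying between 26.8 and 31.1. The deposited detection score rises with intensity, and 1 minus it was taken as the detection p. Per the file headers, the bead count of a probe had a median of 41 to 42 per array, and the number of arrays limits precision. A deposited value table of the same arrays, which the authors normalised by a method that is not stated, names the probes. All 48803 rows were joined to it 1 to 1 by their values, with no ambiguous match.

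The platform annotation gave the gene symbols, and those of all 32 members with a probe equal the RefSeq symbols of GRCh38.p14. The neqc function of limma 3.58.1 (R 4.3.3) corrected, quantile-normalised and log2-transformed the intensities with an offset of 16, which compresses the changes of dim probes. Kept were 18732 probes with a detection p under 0.01 on at least 3 arrays. Group means were compared probe by probe in limma (lmFit and eBayes, two-sided), p-values were adjusted by Benjamini-Hochberg across these probes, and an adjusted p under 0.05 counted as called. A gene is read from its brightest kept probe. The script was tested on simulated data. The labels call replicates biological without naming separate cultures. The p-values thus reflect only how these arrays vary, part of which may be technical.

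Same-numbered arrays of the 2 groups deviated together from their group means (correlations of 0.334, 0.135 and 0.434 over kept probes for numbers 1, 2 and 3), so the numbers were taken to pair the arrays. For number 2 the mimic array correlated more highly with another control (0.181), and for number 1 nearly as highly (0.315). Only number 3 stood clear of the others (-0.351). Deviations from a mean of 3 arrays sum to 0, so these correlations are not independent of one another. The pairing is therefore uncertain. The pairing comes from these correlations and the shared numbers, since the labels name no shared batch. The fit with the replicate number as a block is given where it changes the call of a gene named here.

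The members, the roles, the list of other pathway genes and the motifs were chosen with earlier results of these data known. All 33 members are named. Values of every array are given for members past the threshold, the 6 next by unadjusted p and the lowest of each role, and for DNAJC10, EIF2AK3, DERL1 and EDEM3, which were added after their values were seen. The alternatives are no detection filter, detection on all 6 arrays, no background correction, median scaling, the deposited value table, trend and robust moderation, array weights, the replicate block, the mean over a gene's probes and each array left out. Leaving out both number 3 arrays was added after the data were seen. Target sites of mir-22 were not analysed here.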

Additional observations from a re-analysis of the deposited data

How the results depend on the processing

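The 5 members called with 6 arrays became 6 without a detection filter, 6 with detection on all arrays, 8 without background correction, 7 with median scaling, 6 in the deposited value table, 7 with trend and robust moderation, 6 with the replicate block, 6 when the probes of a gene were averaged and 14 (13 higher, 1 lower) with array weights. With 1 array left out the count ran from 1 to 11, the highest without control mimic replicate 3, and it was 11 without both number 3 arrays. The count of other pathway genes, 6 with 6 arrays, was 11 with the replicate block, which takes the replicate numbers as pairs. It was 27 with array weights, 20 without both number 3 arrays and 1 to 19 with 1 array left out. The number of all called probes moved likewise, from 1210 to 134 without mimic replicate 1, 2689 without control mimic replicate 3 and 4405 with array weights. Of the 11133 measured genes, 386 rose and 461 fell in the main fit. These counts were 441 and 571 without background correction, 322 and 120 with median scaling and 522 and 579 with the replicate block. They were 1411 and 1516 with array weights, 957 and 853 without control mimic replicate 3 and 56 and 39 without mimic replicate 1. Without both number 3 arrays they were 1039 and 1018. The cause of these shifts was not tested. The median of the members was 0.28 and ran from 0.23 to 0.281 with 1 array left out, was 0.229 with array weights and 0.417 with median scaling. Median scaling also raised the median of all genes by 0.115, and the members' median lay 0.319 above that of all genes there and 0.297 above it with quantile normalisation. No called member changed sign in any alternative. The replicate block changed the call of 1 member's brightest probe, HSPA5, and of no other. Dim probes such as those of EIF2AK3 and SEL1L limit what the arrays can show, since the offset compresses their changes.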
